A study of Homo sapiens with 40 samples.

Results

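Human mitochondrial ribosomal protein genes were taken as every gene whose symbol reads MRPL or MRPS, a number and at most 1 further letter, which gave 78 of the 62263 rows of the deposited table, 49 with MRPL symbols and 29 with MRPS symbols. The rule reads symbols only and uses no measured value. Their RNA was followed in BEAS-2B, immortalized human lung epithelial cells, by Frac-seq, in which total RNA (input) and RNA bound to several ribosomes at once (polysome) from lysed cells are sequenced side by side. All 40 libraries came from 1 of 2 constitutive lines, with a control hairpin (shControl) or a hairpin against the RNA-binding protein IGF2BP3 (shIGF2BP3, called knockdown here). Per the growth protocol, both lines were starved in medium with 2% serum, then kept without cytokine or given IL-13 at 100 ng/ml, and were harvested 24 h later. Fraction, treatment and line gave 8 groups of 5 libraries. The series text speaks of an overnight stimulation, and the column names write siC and siIGF2BP3 for the hairpin lines. With 1 line per hairpin, loss of IGF2BP3 and other ways in which the lines differ cannot be told apart. The labels do not say that the 5 replicates of a group were separate cultures, so the p-values measure only the spread between these samples, which may be technical.

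Mitochondria keep a small genome of their own whose mRNAs encode core subunits of the respiratory chain. These are translated inside the organelle by a dedicated ribosome, the mitoribosome, whose large and small subunits are built from mitochondrially encoded rRNA and from proteins encoded in the nucleus. The mRNAs of those proteins are translated by cytosolic ribosomes, so the polysome RNA measured here concerns ribosomes of the cytosol and not translation inside mitochondria. Some of the proteins descend from bacterial ribosomal proteins and others have been added in the mitochondrial lineage. By their place in the mitoribosome, 51 of the 78 genes encode large-subunit proteins, MRPS18A and MRPS30 among them despite their symbols, and 26 encode small-subunit proteins. MRPS36 is also known as KGD4, a component of the 2-oxoglutarate dehydrogenase complex, and is counted in neither subunit.

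Total counts were 14044352 to 40441061 in the 20 input libraries and 1816848 to 34082191 in the 20 polysome libraries, 3 of which, all of the knockdown line, held under 5000000. Every one of the 78 genes passed the filter on low counts that left 16735 genes, and the lowest estimated count of any of them in any library was 16. IGF2BP3 spanned 20.7 to 48.8 CPM (counts scaled to library size) in control input libraries and 17.7 to 35.1 CPM in knockdown input libraries. In polysome libraries it spanned 4.23 to 19.5 CPM in control and 2.6 to 26.4 CPM in knockdown, so the ranges of the lines overlapped in both fractions, and the highest polysome value was in a library labelled knockdown. The simple-epithelium keratin KRT8 was at a median of 845 TPM (a level corrected for transcript length and depth) in input, while EPCAM and CDH1, junction genes of epithelia, had medians of 0.299 and 0.143 TPM. The mesenchymal filament gene VIM reached a median of 1280 TPM, and of 3 leukocyte genes PTPRC was listed at 0 in all 20 input libraries, CD3E in 19 and CD14 in none (8.26 to 29.2 TPM).

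Upstream DNA of 6 members is shown first, because these genes are at the ends of the range of polysome differences described further on, and because short motifs known from genes of mitochondrial function are found on both sides of that range. The 6 are those with an ETS-, NRF1- or YY1-type motif before the start among 14 members looked at from the ends of the range. The other 8 had none there: MRPL16, MRPL28, MRPL24, MRPL34, MRPL41, MRPS24, MRPL12 and MRPL11. Each stretch comes from a RefSeq window of GRCh38.p14 that runs from 250 bases before to 50 after the start of a gene. It is written 5′ to 3′ on the strand of the gene, with the motif in capitals, as found on either strand. The start meant is that of RefSeq. By GENCODE 29, used for positions elsewhere, the stretches of MRPL48 (gene at chr11:73787316-73865133) and MRPL53 (gene at chr2:74471958-74473322) lie inside the gene. MRPL48, MRPS23 and MRPL22 were higher in polysome RNA than in input.
MRPL48: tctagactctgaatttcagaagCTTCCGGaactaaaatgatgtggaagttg
MRPS23: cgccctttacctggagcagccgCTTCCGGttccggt
MRPL22: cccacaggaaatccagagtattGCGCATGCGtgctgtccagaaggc
MRPL33, MRPL57 and MRPL53 were lower in polysome RNA than in input.
MRPL33: tcttccagaaccgggccgtgccCCGGAAGc
MRPL57: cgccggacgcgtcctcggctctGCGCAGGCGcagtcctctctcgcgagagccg
MRPL53: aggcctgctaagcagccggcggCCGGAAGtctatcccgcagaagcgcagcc
The stretches are at chr11:73787789-73787839 (plus strand) for MRPL48, chr17:57850045-57850080 (minus) for MRPS23, chr5:154941027-154941072 (plus) for MRPL22, chr2:27771689-27771718 (plus) for MRPL33, chr13:21176562-21176614 (plus) for MRPL57 and chr2:74472724-74472774 (minus) for MRPL53.

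A window was found for 69 of the 78 genes and for 15843 protein-coding genes. The ETS-type motif CCGGAAG was in 42.0% of the members' windows and 14.2% of all protein-coding windows. The YY1-type motif AAGATGGCG was in 18.8% against 2.74%, and the NRF1-type motif GCGCANGCG in 18.8% against 11.0%. In the windows of 68 cytosolic ribosomal protein genes, these motifs were in 33.8%, 8.82% and 11.8%, in the same order. At least 1 of them was in the windows of 45 members. The SP/KLF-type motif GGGCGG (60.9% against 58.5%) and the E-box CACGTG (8.7% against 8.88%) were at shares near those of all windows, and the TATA motif TATAAA was in 2 members' windows (2.9% against 9.63%). Both strands were searched, and none of these motifs contains another. Of the 29 members with CCGGAAG, 18 were called higher in polysome RNA and 4 lower, in a set of windows with 46 members called higher and 12 lower. These matches describe letters in a window and are not binding sites.

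All 78 genes were expressed above the typical gene. Mean input TPM over 20 libraries ran from 6.96 to 369, a 53-fold range, with a median of 69.8 against 5.39 over all genes tested, and each member lay above that 5.39. MRPS24, the counterpart of bacterial S3 at the mRNA entry, had the highest level at 369 TPM ± 43.9 (SD, n = 20), followed by MRPL51 at 342 ± 41.2, MRPL41 at 332 ± 63.4, MRPL33 at 322 ± 46.4 and MRPL12, a protein of the ribosomal stalk, at 203 ± 40.1. Input libraries spanned 275 to 443 TPM for MRPS24 and 265 to 431 TPM for MRPL51, so the order of the leading genes lay within their spread. The 5 lowest were MRPS5, MRPS14, MRPL50, MRPL1 and MRPL15. The median level was 77.0 TPM in the large-subunit set and 50.8 TPM in the small-subunit set. In a bulk sample, fewer cells of a type and less RNA per cell cannot be told apart.

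The level was similar in the 4 input groups and higher in the 4 polysome groups. The median member stood at 74.3 TPM in unstimulated control input, 69.6 in IL-13 control input, 69.2 in unstimulated knockdown input and 68.8 in IL-13 knockdown input. In polysome RNA the same medians were 99.2, 112, 105 and 102 TPM. MRPS24 was the highest member in all 4 input groups (364 to 373 TPM), and MRPL51 was the highest in all 4 polysome groups (564 to 692 TPM). The lowest member was MRPL15 in the input groups and MRPS31 in the polysome groups.

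Taken as a share of all estimated counts, the 78 genes held 0.437% to 0.683% of an input library (median 0.495%) and 0.612% to 0.904% of a polysome library (median 0.784%). In unstimulated control input the 5 shares were 0.521%, 0.45%, 0.485%, 0.625% and 0.497%, and in unstimulated control polysome they were 0.612%, 0.799%, 0.799%, 0.749% and 0.872%. In IL-13 control input they were 0.466%, 0.492%, 0.683%, 0.508% and 0.612%, and in IL-13 control polysome 0.904%, 0.791%, 0.897%, 0.765% and 0.848%. The ranges of the fractions overlapped across the series, where input libraries of the control line at 0.683% and 0.625% met polysome libraries at 0.612% in the control line and at 0.66% and 0.673% in the knockdown line, while within each of the 4 settings of line and treatment, except unstimulated control, they did not.

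**Figure D1:**
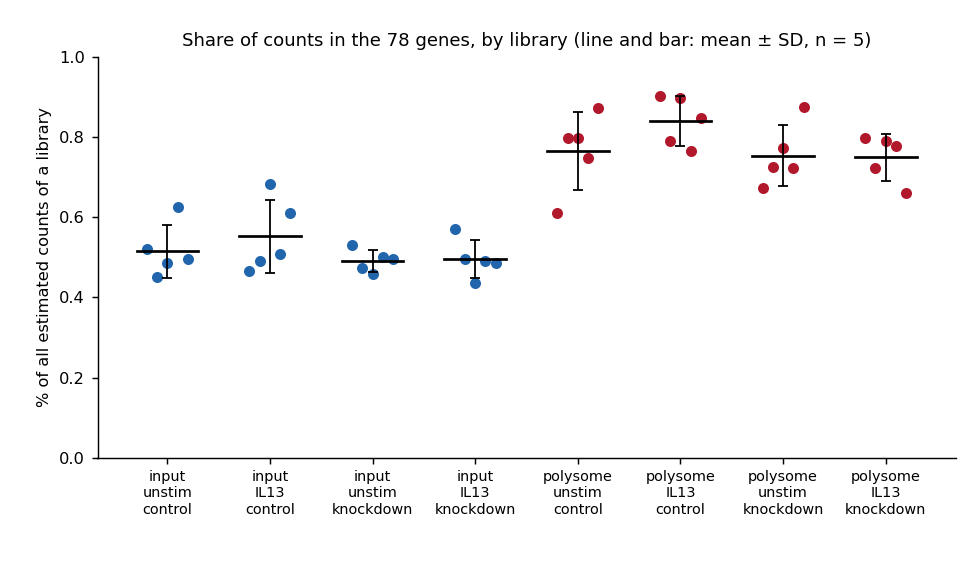
Percent of all estimated counts of a library that fell on the 78 genes (vertical axis, from 0) in the 8 groups, 1 point per library, with the mean and SD of 5 libraries; input is blue and polysome is red. Input libraries sit between 0.437% and 0.683% and polysome libraries between 0.612% and 0.904%.

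To ask how much of each mRNA was on polysomes, polysome RNA was compared with input RNA, first averaged over the 4 settings. With edgeR's quasi-likelihood test, adjusted by Benjamini-Hochberg over all 16735 genes and called at an adjusted p under 0.05, 53 members were called higher in polysome RNA, against a background of 26.2% of all genes called higher. Another 14 were called lower, against a background of 38.9%, and 11 were not called. The calls higher made up 67.9% of the members and the calls lower 17.9%. The median log2 difference (polysome minus input) was 0.73 over the members and -0.24 over all genes tested, and single members ran from -1.36 to 1.88. Since both fractions are scaled to their own total, these are differences relative to the other RNAs of a fraction. With an offset for transcript length the split was 59 higher and 9 lower, where 29.4% of all genes were called higher and 34.5% lower. With the 37 libraries of at least 5000000 counts it was 61 higher and 9 lower, where the shares of all genes were 28.7% and 35.0%. The members are well expressed, and among genes of at least 10 CPM the backgrounds were nearer to them. There 37.2% of all genes were called higher and 42.5% lower (median -0.06), with 52 members called higher and 14 lower (median 0.66).

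**Figure D2:**
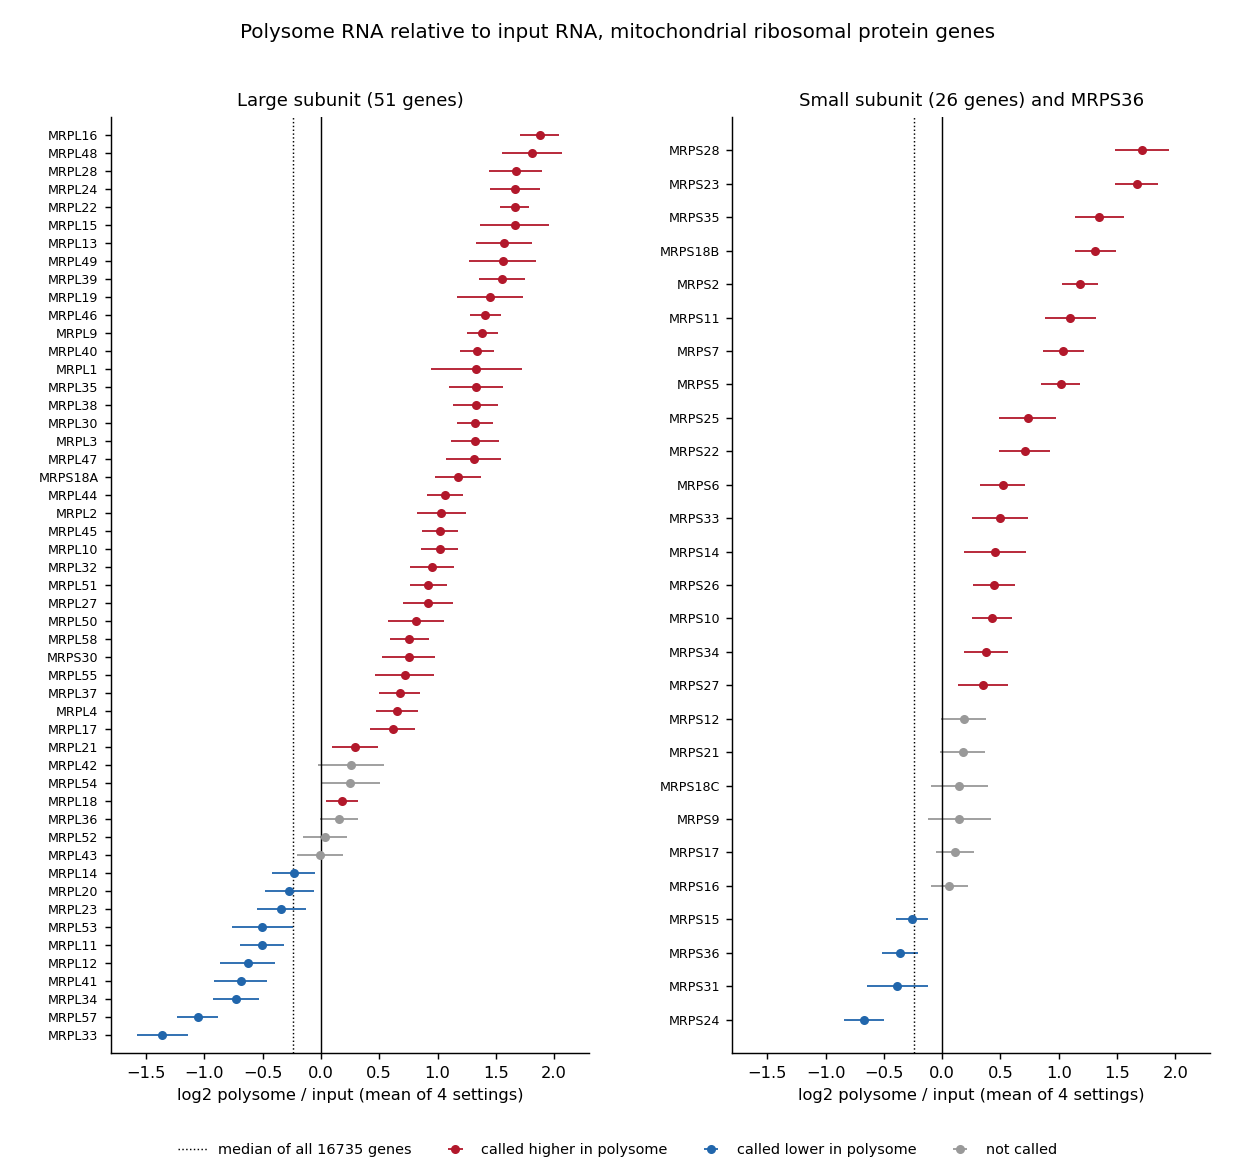
Log2 difference between polysome and input RNA (horizontal axis, mean of 4 settings) of each gene, as a point with its 95% interval, for the large subunit on the left and for the small subunit with MRPS36 on the right; colour marks the call and the dotted line is the median of all 16735 genes. Members run from -1.36 (MRPL33) to 1.88 (MRPL16), with 53 called higher, 14 called lower and 11 not called.

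The member furthest towards polysomes was MRPL16, the counterpart of bacterial L16 near the catalytic centre of the large subunit. MRPL16 (chr11:59806135-59810872 in GRCh38, minus strand) measured 55.5 to 105 CPM in the 20 input libraries (median 75.4) and 165 to 372 CPM in the 20 polysome libraries (median 268). All polysome libraries were above all input libraries. The log2 difference was 1.88 (SE 0.0856), a 3.67-fold difference with an adjusted p of 7.25e-21 in edgeR's test. MRPL48, a protein of the central protuberance found in mitochondria but not in bacteria, went from 15.1 to 31.2 CPM in input (median 21.6) to 36.4 to 115 CPM in polysome libraries (median 76.7), again without overlap. Its log2 difference was 1.81 (SE 0.13).

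MRPL22, which lines the exit tunnel for the nascent chain, had the smallest p of the members (adjusted p 5.27e-23 in edgeR's test). It measured 59.2 to 87.6 CPM in input libraries and 160 to 281 CPM in polysome libraries, and its log2 difference was 1.66 (SE 0.0636). The other members of largest log2 difference were MRPS28 at 1.71, MRPL28 at 1.67, MRPS23 at 1.67, MRPL24 at 1.66 and MRPL15 at 1.66, each more than 3-fold higher in polysome RNA. MRPL15, the lowest member by input TPM, was at a median of 9.52 CPM in input and 29.4 CPM in polysome libraries.

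At the other end was MRPL33, which has the shortest coding sequence of the 78 genes at 65 codons. MRPL33 (chr2:27771717-27988087, plus strand) measured 59.7 to 101 CPM in input libraries (median 81.8) and 15.1 to 54.3 CPM in polysome libraries (median 31.3), with all polysome libraries below all input libraries. The log2 difference was -1.36 (SE 0.112), which is 2.57-fold lower in polysome RNA, with an adjusted p of 1.35e-13 in edgeR's test. MRPL57, a mitochondria-specific large-subunit protein of 102 codons, went from 61.3 to 112 CPM in input to 24.5 to 56.4 CPM in polysome libraries and was 2.08-fold lower (log2 difference -1.06, SE 0.0889), without overlap.

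**Figure D3:**
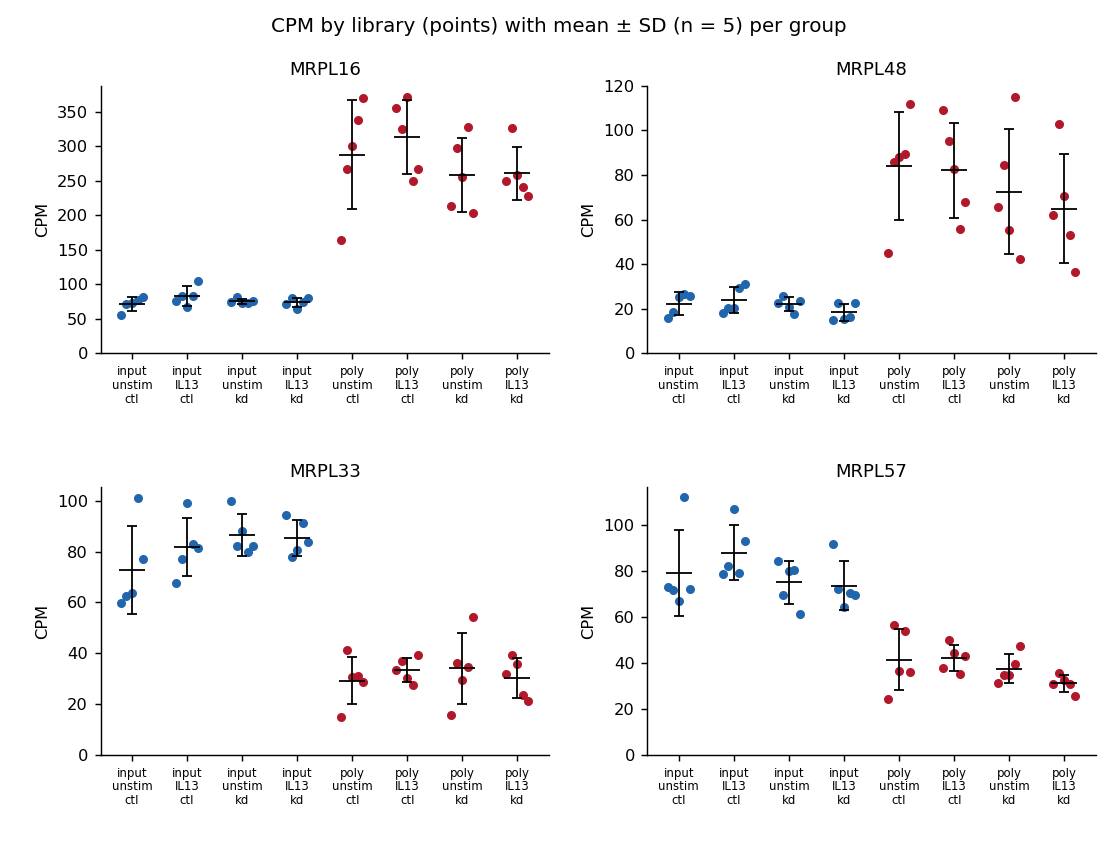
CPM by library (vertical axes, each from 0) of MRPL16, MRPL48, MRPL33 and MRPL57 in the 8 groups (ctl is the control line, kd the knockdown line, poly is polysome), with the mean and SD of 5 libraries. Polysome libraries of MRPL16 and MRPL48 lie above all input libraries, and those of MRPL33 and MRPL57 lie below all input libraries.

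The next members of the lower set were, in order, MRPL34 at -0.73, MRPL41 at -0.69, MRPS24 at -0.67, MRPL12 at -0.63, MRPL11 at -0.51 and MRPL53 at -0.50 on the log2 scale. Among these are MRPL12 and MRPL11, of the stalk and its base, where translation factors bind, whereas MRPL10, which anchors the stalk, was called higher (log2 difference 1.02). For MRPL12, input libraries spanned 106 to 274 CPM and polysome libraries 56.2 to 177 CPM, which overlap. The remaining calls lower were between -0.38 and -0.24: MRPS31, MRPS36, MRPL23, MRPL20, MRPS15 and MRPL14. For MRPS31, 22.0% of the counts of the gene and its annotated pseudogenes together fell on the pseudogenes, so its value is uncertain. Over all members, pseudogenes named after them held 0.079% of such counts. Of the 5 genes with the highest input level, 4 were in the lower set, MRPS24, MRPL41, MRPL33 and MRPL12, while MRPL51 was higher in polysome RNA (log2 difference 0.92).

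Across the 20 polysome and 20 input libraries, 22 members had every polysome library above every input library, against 4.48% of all genes tested. Another 2, MRPL33 and MRPL57, had every polysome library below, against 7.15% of all genes. With libraries of at least 5000000 counts only, these counts were 23 and 2. The shares of all genes in that smaller set of libraries are not given here, so the counts there only describe the members. Set side by side by replicate number within a line and treatment, the median member's ratio of polysome to input CPM ran from 1.25 to 2.19 over 20 such pairs (median 1.62), and between 49 and 69 members had a ratio above 1. The ratio of MRPL16 was 2.96, 3.72, 4.14, 4.34 and 4.5 in unstimulated control pairs and 3.47, 4.09, 4.01, 3.2 and 2.86 in IL-13 knockdown pairs. That of MRPL33 was 0.254, 0.662, 0.479, 0.305 and 0.371 in the first and 0.336, 0.504, 0.445, 0.259 and 0.253 in the second. MRPL16 was above 1 and MRPL33 below 1 in each of these pairs.

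The 4 settings gave like counts when tested one by one with the same test. In unstimulated control cells 47 members were called higher (background 17.4%) and 5 lower (22.8%), and in IL-13 control cells 48 were called higher (16.7%) and 4 lower (22.6%). In unstimulated knockdown cells 47 were called higher (16.4%) and 8 lower (22.0%), and in IL-13 knockdown cells 42 were called higher (16.0%) and 9 lower (23.3%). The member medians were 0.80, 0.72, 0.81 and 0.64 on the log2 scale. The 3 libraries under 5000000 counts all hold knockdown polysome RNA. Without them, 49, 52, 45 and 46 members were called higher in the same order (backgrounds 19.1%, 19.0%, 17.6% and 19.2%). In that fit 5, 4, 5 and 4 were called lower (21.9%, 21.1%, 17.7% and 18.6%). Among genes of at least 10 CPM, the backgrounds called higher were 27.9%, 26.1%, 27.5% and 27.5% in the same order. With that filter 46, 45, 47 and 42 members were called higher. By name, 41 members were called higher in all 4 settings and 4 were called lower in all 4, MRPL33, MRPL57, MRPL34 and MRPS24. None was called in both directions, and 18 were called in no single setting. The shares of all genes called in all 4 settings, or in none, are not given here, so these counts only describe the members. The sign was positive in all 4 settings for 59 members, negative in all 4 for 14 and mixed for 5, MRPL43, MRPL52, MRPS12, MRPS16 and MRPS17.

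Single members held their place across settings. The log2 difference of MRPL16 was 2.00, 1.92, 1.78 and 1.81 in unstimulated control, IL-13 control, unstimulated knockdown and IL-13 knockdown cells, that of MRPL22 was 1.65, 1.63, 1.63 and 1.74, and that of MRPL33 was -1.31, -1.29, -1.36 and -1.48. MRPL46, a mitochondria-specific large-subunit protein, was at 1.49, 1.46, 1.22 and 1.46. MRPL9, the counterpart of bacterial L9, was at 1.35, 1.46, 1.36 and 1.36. MRPL57 was at -0.93, -1.07, -1.01 and -1.23, and MRPS24 at -0.59, -0.61, -0.62 and -0.87. MRPL34, another small protein of the large subunit, was at -0.68, -0.76, -0.62 and -0.86. In unstimulated control cells it was at -0.52 and not called without replicate 1 of unstimulated control in both fractions, and at -0.59 and not called in a fit of the compared libraries alone. The largest range of a member over the 4 settings was 0.59, for MRPL43, and the median range was 0.24.

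By subunit, and against the same backgrounds of 26.2% of all genes called higher and 38.9% lower, 36 of 51 large-subunit genes were called higher and 10 lower, with a median log2 difference of 0.92, and 17 of 26 small-subunit genes were called higher and 3 lower, with a median of 0.45. Of the 46 subunit genes with a bacterial counterpart, 30 were called higher and 9 lower (median 0.69), and of the 31 mitochondria-specific ones 23 were called higher and 4 lower (median 0.75). In this split MRPS18A and MRPS18B, though paralogs of bacterial S18, were counted as mitochondria-specific, and MRPS18C as having a bacterial counterpart. Members of each set spread over more than these medians differ, and no difference between the sets was tested.

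The members with special roles listed here all lay above 0, though not all were called, whereas MRPL12 and MRPL11 of the stalk region, named above, were called lower. The 3 paralogs of bacterial S18 had log2 differences of 1.17 for MRPS18A, which sits in the large subunit, 1.31 for MRPS18B and 0.15 for MRPS18C, which was not called (95% interval -0.10 to 0.39). MRPL58, a peptidyl-tRNA hydrolase built into the large subunit, was at 0.76, MRPL44, with a fold related to RNase III, at 1.06, and MRPL45, at the tunnel exit facing the inner membrane, at 1.02. MRPS12, the counterpart of the decoding-centre protein S12, was at 0.18 and not called (adjusted p 0.107 in edgeR's test, 95% interval -0.01 to 0.38). MRPS27, with pentatricopeptide repeats, was at 0.35 and called. Of 3 small-subunit genes known for inherited respiratory chain deficiency, MRPS22 (0.71) and MRPS34 (0.38) were called higher, and MRPS16 was at 0.06 and not called (95% interval -0.10 to 0.22).

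Coding length varied with the polysome difference among the members. Coding lengths from GENCODE 29 ran from 65 to 439 codons. The median was 216 codons among members called higher, 147 among those called lower and 138 among those not called. Of 23 members under 150 codons, 6 were called higher and 8 lower, with a median log2 difference of 0.15, where all 983 genes of that length had a median of -0.48, with 16.8% called higher and 51.3% lower. Of 28 members of 150 to 249 codons, 23 were called higher and 4 lower (median 0.89), and of all genes of that length 49.8% were higher and 23.7% lower (median 0.37). Of 19 members of 250 to 349 codons, 18 were called higher and 1 lower (median 1.32), against 57.9% and 15.1% of all genes (median 0.63). Of the 8 members of at least 350 codons, none longer than 439 codons, 6 were called higher and 1 lower (median 0.69). The 8736 genes of at least 350 codons reach 8923 codons, and 22.1% were higher and 45.5% lower (median -0.34). In each of the 4 ranges the members' median was above that of all genes, but in the last range the sets compared are unlike in length.

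As a description across genes, which are not independent replicates and share libraries, the Spearman correlation of coding length with the log2 difference was 0.497 over the 78 members and -0.448 over 13415 genes with a coding length. The signs differ, and the members cover only the short end of the lengths of all genes, whose median was 457 codons. For the length of the mRNA outside the coding sequence, the correlation over the members was 0.041.

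**Figure D4:**
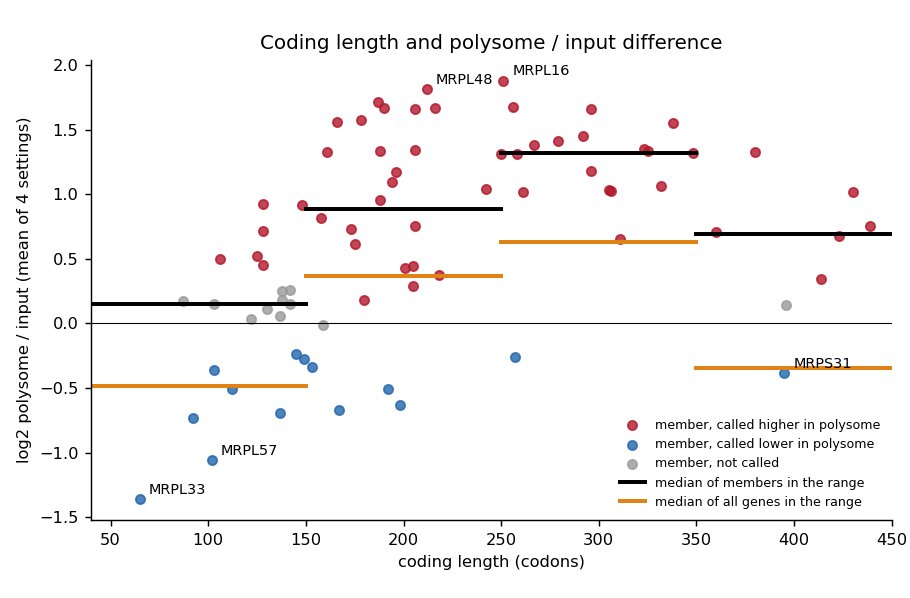
Coding length in codons (horizontal axis) and log2 difference between polysome and input RNA (vertical axis, mean of 4 settings) of the 78 genes, coloured by call; black bars are medians of the members and orange bars medians of all genes in 4 length ranges. The members' median is 0.15 below 150 codons and 1.32 at 250 to 349 codons, and each black bar is above its orange bar. The orange bar from 350 codons is the median of all genes of at least that length, up to 8923 codons, which lie mostly beyond the axis.

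Other genes of the same pathway were mixed, set against the same backgrounds of 26.2% of all genes called higher and 38.9% lower. Of 5 mitoribosomal proteins with other names, GADD45GIP1 (0.69) and AURKAIP1 (0.70) were called higher, and DAP3 (-0.36), CHCHD1 (-0.52) and PTCD3 (-1.37) lower. Of 15 mitochondrial translation factors, 6 were called higher and 2 lower. The elongation factor genes TSFM (1.77) and TUFM (1.09) and TACO1 (1.61), an activator of COX1 translation, were higher, whereas elongation factor gene GFM1 (-1.94) and LRPPRC (-2.78), which binds mitochondrial mRNAs, were lower. Of 25 assembly and rRNA modification factors, 17 were called higher and 4 lower, with a median of 0.88. Among these, the GTPase gene MTG1 was at 1.51 and the helicase gene DHX30 at -1.25.

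Other sets were described for comparison, the ribosomal proteins of the cytosol and the mRNAs that mitoribosomes translate. The backgrounds are again 26.2% of all genes called higher and 38.9% lower. Of 84 cytosolic ribosomal protein genes tested, 21 were called higher in polysome RNA, a share near the background, and 46 lower, with a median of -0.42. All 13 mitochondrially encoded mRNAs were called lower, with a median of -3.17. The difference between these sets and the members was not tested.

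The knockdown line was compared with the control line within each fraction and treatment. No member was called in any of the 6 comparisons by edgeR's test. In input RNA the backgrounds were 0.0120% of all genes called in unstimulated cells, 0% in IL-13 cells and 0.406% for the mean of both treatments. In polysome RNA they were 0.0299%, 0.0896% and 1.38%. Counted at an unadjusted p under 0.05, the members numbered 0, 0 and 2 in input RNA, where the shares of all genes are not given here. In polysome RNA they numbered 2, 20 and 20, and 7.42%, 9.92% and 14.7% of all genes passed that limit. The Wald test of DESeq2 also called none.

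Uncalled as they were, the values of most members lay below 0, that is lower in the knockdown line. In input RNA 55 of 78 lay below 0 in unstimulated cells and 66 in IL-13 cells, with medians of -0.04 and -0.15 on the log2 scale, where 52.2% and 51.0% of all genes lay below 0. In polysome RNA 54 and 65 lay below 0, with medians of -0.09 and -0.24, against 53.5% of all genes in both. Members share libraries, so these counts are a description. The size rested in part on single libraries. Leaving out 1 library at a time moved the polysome median in IL-13 cells between -0.29 and -0.19, and the input median in IL-13 cells between -0.21 and -0.06, the latter without replicate 3 of IL-13 control input. In unstimulated input the median ranged from -0.10 to 0.05, the latter without replicate 4 of control input. In unstimulated polysome RNA it ranged from -0.15 without control replicate 1 to -0.03 without knockdown replicate 1. With the 37 libraries of at least 5000000 counts, the polysome median in IL-13 cells was -0.13 with 54 members below 0, and the part of depth in this result was not tested further.

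The members of smallest p give the size of what was not called. In IL-13 polysome RNA, MRPL43, a mitochondria-specific large-subunit protein, measured 96.4, 135, 101, 76.0 and 112 CPM in control and 67.7, 84.3, 66.4, 75.2 and 41.2 CPM in knockdown libraries. The ranges overlapped, and the log2 difference was -0.63 (SE 0.203, 95% interval -1.03 to -0.23, adjusted p 0.241 in edgeR's test). In unstimulated polysome RNA the same gene measured 47.7, 89.6, 106, 88.9 and 144 CPM in control and 82.3, 69.8, 94.7, 87.1 and 103 CPM in knockdown libraries, and the knockdown values lay within the control range. MRPL23, at the tunnel exit, was at -0.64 in IL-13 polysome RNA (adjusted p 0.264 in edgeR's test).

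For the mean of both treatments in polysome RNA, MRPL14 was at -0.37 (adjusted p 0.173 in edgeR's test) and MRPL17 at -0.37 (adjusted p 0.179). Without replicate 1 of unstimulated control in both fractions, whose polysome library had the lowest member share of its fraction, 3 members were called lower in the knockdown line: MRPL43 at -0.46, MRPL17 at -0.45 and MRPS6 at -0.41. Without the polysome library alone, MRPL43 and MRPS6 were called. The share of all genes called in both of these fits is not given here, and the 1.38% above belongs to the main fit. These calls are therefore no result about the members as a set. In that library, replicate 1, MRPS6 measured 42.9 CPM, and 91.0, 89.5, 138 and 142 CPM in the other 4 control libraries. In unstimulated polysome RNA alone the smallest p belonged to MRPS14 (0.57) and MRPL46 (-0.27), in unstimulated input to MRPS28 (0.39) and MRPL17 (-0.30), in IL-13 input to MRPL49 (-0.50) and MRPL55 (-0.44), and for the mean in input to MRPL17 (-0.29) and MRPL49 (-0.42). None of these was called.

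IL-13 was compared with no cytokine within each fraction and line. No member was called in any of the 4 comparisons, where the backgrounds were 0.0777% (control input), 0.0837% (knockdown input), 0.125% (control polysome) and 0.0956% (knockdown polysome) of all genes. The members with an unadjusted p under 0.05 numbered 0, 0, 1 and 1, and the shares of all genes at that limit are not given here. The Wald test of DESeq2 also called none. In the same order, 72, 59, 64 and 30 of 78 members lay above 0, with medians of 0.15, 0.04, 0.14 and -0.03 on the log2 scale, where the medians of all genes were 0.00, 0.00, 0.00 and -0.02. In control input the median was 0.04 without replicate 3 of the IL-13 libraries and 0.23 without replicate 4 of the unstimulated libraries. In knockdown input it ranged from -0.03 to 0.11, in control polysome RNA from 0.06 to 0.21 and in knockdown polysome RNA from -0.10 to 0.04 when 1 library was left out.

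MRPS17, the counterpart of bacterial S17, had the smallest p in control polysome RNA. It measured 24.7, 39.5, 33.7, 37.8 and 35.6 CPM in unstimulated and 58.0, 44.7, 45.1, 33.7 and 41.4 CPM in IL-13 libraries, with overlapping ranges. The log2 difference was 0.38 (SE 0.164, 95% interval 0.06 to 0.70, adjusted p 0.837 in edgeR's test). MRPS10 came next at 0.33. The members of smallest p elsewhere, none of them called, were MRPL43 (0.34) and MRPL2 (0.34) in control input, MRPL15 (-0.33) and MRPL35 (0.25) in knockdown input, and MRPL46 (0.27) and MRPL43 (-0.37) in knockdown polysome RNA.

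**Figure D5:**
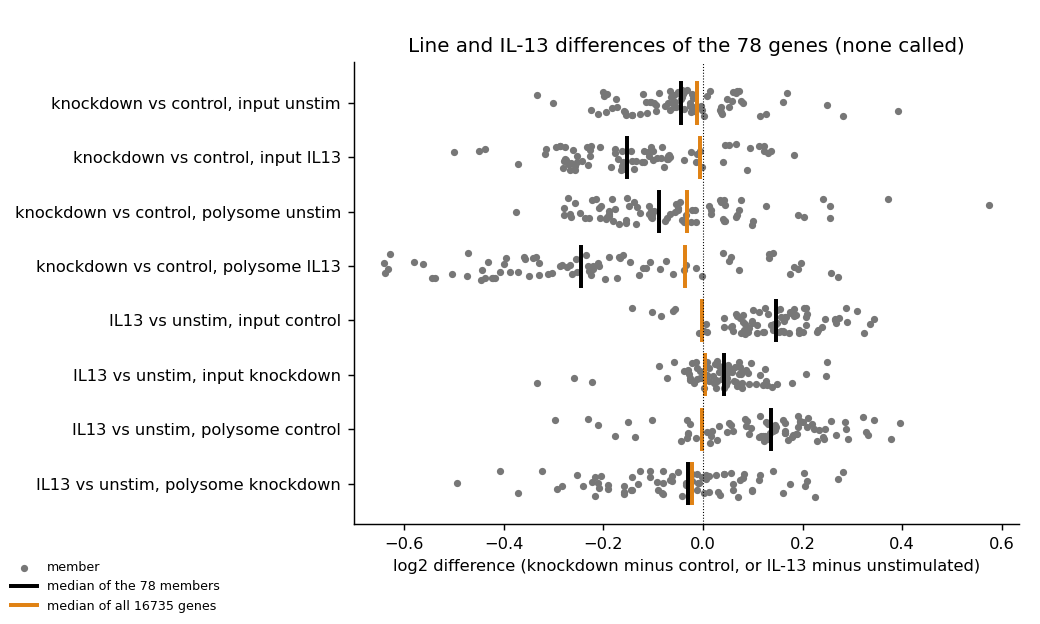
Log2 differences (horizontal axis) of the 78 genes for the line in 4 comparisons and for IL-13 in 4 comparisons, 1 grey point per gene, with the median of the members in black and that of all 16735 genes in orange. Member medians for the line run from -0.24 to -0.04 and those for IL-13 from -0.03 to 0.15, and no gene was called.

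Whether the line or IL-13 changed the polysome difference itself was tested as an interaction, the effect in polysome RNA minus the effect in input RNA. No member was called in any of the 4 tests by edgeR or DESeq2. None had an unadjusted p under 0.05, a limit for which the shares of all genes are not given here. The backgrounds of genes called were 0% of all genes for the line in unstimulated cells and 0.00598% for the line in IL-13 cells. For IL-13 they were 0% in control cells and 0% in knockdown cells. The member medians were -0.04, -0.10, -0.02 and -0.06 on the log2 scale, and 49, 57, 44 and 50 of 78 members lay below 0. These medians moved when single libraries were left out. For the line in unstimulated cells, the median was -0.14 without replicate 1 of control polysome RNA and 0.02 without replicate 2 of control input, and 34 to 61 members lay below 0 as each of 20 libraries was left out. For the line in IL-13 cells, it was -0.20 without replicate 3 of control input and -0.03 without replicate 1 of knockdown input. For IL-13 in control cells, it was -0.12 without replicate 4 of unstimulated input and 0.10 without replicate 3 of IL-13 input. For IL-13 in knockdown cells, it was -0.13 and -0.01 without replicates 1 and 5 of unstimulated polysome RNA. The members of smallest p were MRPL46 (-0.27) and MRPL3 (0.40), MRPS11 (-0.47) and MRPS17 (-0.32), MRPS10 (0.28) and MRPS27 (-0.32), and MRPL43 (-0.45) and MRPL53 (-0.57), in the same order. Values of single members lay between -0.57 and 0.46 over the 4 tests.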

How the data were processed

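Per the file headers, the authors deposited 1 table with an estimated count per gene and library, not scaled for depth, and with TPM, in which the authors' values are corrected for the length of transcripts and for depth; stranded libraries were made after poly(A) selection, per the labels' protocols. MultiQC, Trimmomatic, Salmon and DESeq2 are named in the submitters' processing notes. The genome build and annotation are not given in the sources used here. The TPM of a library sum to 82.3% to 85.9% of a full set.

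The design had assumed whole counts, so estimated counts were rounded. Genes were filtered with filterByExpr on the 8 groups (16735 kept, at least 99.91% of counts), scaled by TMM, and fitted in edgeR 4.0.16 (R 4.3.3) with 1 mean per group over 40 libraries and 32 residual degrees of freedom. Tests are two-sided, with Benjamini-Hochberg adjustment over every gene in the fit. An interval of 95% is 1.96 standard errors to each side. CPM use the scaled library sizes. Intervals and counts cover reads without molecular identifiers, which are not independent molecules. The code was tested on simulated data. Replicate libraries differed beyond counting noise in all 80 pairs (chi-square per degree of freedom of at least 15.06).

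Symbols matched 62246 of 62263 IDs. Positions and coding lengths come from GENCODE 29 (GRCh38), and upstream windows from RefSeq (GRCh38.p14).

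The symbol rule uses no measured value, but this gene family and the lists were chosen with earlier results of these data known, and the roles by subunit were assigned after values were seen. Named are the 5 highest and 5 lowest members by input TPM, up to 8 called members per direction by size in the mean of 4 settings, elsewhere the 3 called of smallest p per direction or, with none called, the 2 of smallest p, and members with a known role. Alternatives were DESeq2 size factors, its Wald test (DESeq2 1.42.0), a filter of only 1 count, genes of at least 10 CPM, the compared libraries alone, an offset for transcript length, a depth of 5000000 counts or more, blocks by replicate number, alone or within line and treatment, no replicate 1 of unstimulated control, and each library left out in turn. Chosen after seeing the data were the fit of the 20 libraries of 1 fraction, the overlap counts in deep libraries and the medians with 1 library left out.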

Additional observations from a re-analysis of the deposited data

Results flagged for a closer look

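In each group of 5 libraries, the share of counts in the 78 genes and the CPM of 10 of the members were searched for a library far from the other 4, by Dixon's ratio with a limit of 0.71. Of 88 groups of values, 3 held such a library, and chance gives about 1 in 20, or 4.4. MRPL57 measured 91.9 CPM in replicate 1 of IL-13 knockdown input, where the other 4 libraries measured 64.5 to 72.0 CPM. In unstimulated control input it measured 112 CPM in replicate 4 and 66.9 to 73.2 CPM in the others. MRPS10 measured 70.9 CPM in replicate 2 of IL-13 control polysome RNA and 95.4 to 99.9 CPM in the others.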

How the results depend on the processing

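The count of members called between polysome and input RNA was 66 to 70 for the mean of 4 settings and 46 to 57 in single settings under the alternatives, and 67 to 68 and 48 to 54 with 1 library left out. Over the alternatives, 11.7% to 37.2% of all genes were called higher and 22.0% to 42.5% lower for the mean of 4 settings. In single settings these shares were 6.45% to 27.9% and 9.39% to 33.6%. The shares with 1 library left out are not given here. Deviations of input and polysome libraries of the same line, treatment and number had a median correlation of 0.00455 (-0.483 to 0.628). Of 40 libraries, 11 correlated best with their own number. A correlation near 0 cannot show that the samples were unpaired, and the labels do not say. Depth varied with the number: polysome libraries held 24922300 to 34082191 counts in replicate 4 and 1816848 to 10075876 in replicate 5. Input libraries held 33387489 to 40441061 in replicate 4 and 14044352 to 24303049 in replicate 5. With a replicate block, 67 members were called in the mean of 4 settings, where 25.8% of all genes were called higher and 39.2% lower. With a replicate block that sets the input and polysome library of the same line, treatment and number together, 66 were called. There the shares of all genes were 23.9% and 40.4%. The count for the line in polysome RNA, mean of both treatments, was 0, and it was 3 without replicate 1 of unstimulated control in both fractions and 0 to 2 with 1 library left out, 2 being without replicate 1 of unstimulated control polysome RNA. For the fits with calls, the share of all genes called is not given here. The other counts for the line, IL-13 and shifts were 0 under each alternative run. Of 2483 values of named members under alternatives, 2469 kept their sign and side of the limit, 11 became called, 2 lost their call and 1 reversed, MRPS16 at -0.0052 among genes of at least 10 CPM. Scaling moved the median polysome difference of all genes from -0.24 to -0.18 with DESeq2 size factors and to -0.12 with the length offset, with 64 of 78 members above 0 under both. The 3 shallowest libraries, each with fewer than 5000000 counts, hold knockdown polysome RNA. Without them, 61 members were called higher and 9 lower in the mean of 4 settings, where the shares of all genes were 28.7% and 35.0%. With all libraries, 53 were called higher and 14 lower (26.2% and 38.9%). Leaving libraries out also changes their number, so the part of depth itself was not tested. The cause of the changes named here was not tested.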
